A study of Mus musculus with 4 samples.

Results

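Natural killer (NK) cells are innate lymphocytes that kill stressed or transformed cells without prior priming. Here they were studied inside mouse melanomas. They were taken as the cells that the study's deposited annotation names NK cells, 1054 of 33368 CD45+ cells in 4 tumour samples. All tumours came from YUMM1.7OVA melanoma cells (which carry BrafV600E and lack Cdkn2a, among other alleles, and express ovalbumin) grown in Rag2-/- mice, which have no T or B cells of their own and keep their NK cells. All mice received activated OT-1 CD8 T cells, which recognise ovalbumin, on day 7, and the tumours were taken on day 10, 72 h later. The NTT tumour (709 NK cells of 8266 cells) came from treatment-naive melanoma cells. The RTT tumour (13 of 7970) came from melanoma cells made resistant to the BRAF inhibitor dabrafenib. RTT_ROSA26 (26 of 6836) is the resistant line with a control guide against the Rosa26 locus, and RTT_PTGS12KO (306 of 10296) is the resistant line with Ptgs1 and Ptgs2 disrupted. The resistant lines were kept in dabrafenib, and the guides were used in cells with inducible Cas9. Ptgs1 and Ptgs2 encode both cyclooxygenases, the enzymes that begin prostaglandin synthesis.

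Each group is 1 sample, so no difference between groups could be tested. The labels give 1 tumour per group, whereas the study's legends describe pooled tumours, and each sample stands for 1 melanoma line. The samples were tagged with oligonucleotides, pooled and loaded 3 times, so the spread over loads is technical. All intervals below are 95% intervals that cover counting error only. Where 4 values follow each other without names, they are those of NTT, RTT, RTT_ROSA26 and RTT_PTGS12KO. Of the 33270 barcode sequences, 98 occurred in more than 1 load, and 0 barcodes of 1 load were given to more than 1 sample.

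NK cells kill by releasing granules onto a target. Perforin opens the target membrane and granzymes, which are serine proteases, enter and start cell death. Whether an NK cell fires is set by a balance of receptors: many but not all Ly49 proteins (Klra genes) and CD94-NKG2A read MHC class I on the target as a brake, whereas NKG2D (Klrk1) and NKp46 (Ncr1) are activating. NK cells also secrete interferon-γ and the chemokines Ccl5 and Xcl1, and prostaglandin E2 is known to restrain them through the receptors EP2 and EP4, which raise cAMP.

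The 5 granzyme genes c to g lie side by side on chromosome 14, and the sequence just upstream of their starts shows how alike they are. In the following 60-base stretches of the minus strand (RefSeq promoters, GRCm38.p6), capitals mark the 8 bases at the place of the cAMP response element TGACGTCA.
Gzmc, chr14:56234693-56234752: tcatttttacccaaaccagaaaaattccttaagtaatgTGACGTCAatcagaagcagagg
Gzmd, chr14:56132633-56132692: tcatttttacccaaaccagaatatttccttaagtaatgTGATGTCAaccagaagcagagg
Gzme, chr14:56120666-56120725: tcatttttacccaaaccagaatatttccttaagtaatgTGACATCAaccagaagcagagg
Gzmf, chr14:56211468-56211527: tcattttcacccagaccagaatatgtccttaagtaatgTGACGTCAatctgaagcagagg
Gzmg, chr14:56159635-56159694: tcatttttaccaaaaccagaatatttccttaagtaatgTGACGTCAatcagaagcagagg

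Any pair of these stretches, which were picked for their likeness to that of Gzmc, shared 54 to 58 of 60 bases. Within the capitals, counted from 1 at their 5′ end, Gzmd carried C4T and Gzme carried G5A against the element, and Gzmc, Gzmf and Gzmg carried the whole element. On both strands it occurred in the 250 bases before the start of 1.55% of the 32851 promoters. In those bases it was not found in Gzma, Gzmb or Prf1. The T-box site GGTGTGA (3.33% of promoters, both strands) was found in the 250 bases of none of these 8 genes. A match is a description of letters, not a measured binding site. The reads came from transcript 3′ ends, where the granzymes could be told apart: 0 of 311 windows of 90 bases in the last 400 bases of each granzyme transcript occurred in another.

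The NK cells had the highest level of each of the 7 marker genes among the 17 cell type names. In the pooled NK cells, Gzma stood at 7153 CPM (UMIs per 1000000 UMIs of the summed cells) against 408 in the T cells, the cell type with the next highest value. Gzmc stood at 6378 against 14.6 CPM, Klra7 at 416 against 3.56 CPM and Ncr1 at 258 against 2.14 CPM. Gaps were narrower for genes that other cells use too: Gzmb at 2538 CPM against 2007 CPM and Nkg7 at 1509 against 927 CPM in the T cells, Klrk1 at 348 against 285 CPM in the DC3 dendritic cells, and Klrd1 at 1083 against 632 CPM in the cDC2 dendritic cells. The T-box factor Eomes, which conventional NK cells carry and liver-type ILC1 lack, stood at 134 against 60.2 CPM in the next cell type. These values describe the annotation and are no test of it, because the same genes formed the clusters. A gate of at least 3 of 14 NK marker genes with no Cd3 UMI held 86.6%, 76.9%, 88.5% and 83.0% of the named NK cells. It also took in 139, 61, 53 and 252 cells with other names, mostly monocytes, macrophages and dendritic cells.

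Markers of other cells were checked in the NK sums. Of 20 myeloid genes none was at 0 in any sample, and together they made up 0.598% of the NTT NK UMIs, 2.58% of the RTT ones, 1.49% and 0.647%, against 2.69% to 5.53% in the other cells of the same samples. The myeloid level was thus highest in the NK cells of RTT and next in those of RTT_ROSA26. Counted per cell, 83 of 709, 6 of 13, 8 of 26 and 47 of 306 NK cells had more than 1% myeloid UMIs. The list includes Spp1, which in NTT was higher in NK cells than in the other cells, and without it 58, 6, 8 and 39 cells were above 1%. Their part in the results was measured by leaving those cells out. The 11 T cell genes summed to 0.0185%, 0.00529%, 0.00826% and 0.00970% of NK UMIs, with 1, 8, 3 and 1 of them at 0. In the other cells they summed to 0.00779%, 0.000617%, 0.000785% and 0.00250%. A UMI of Cd3d, Cd3e or Cd3g was present in 91, 3, 3 and 50 NK cells, and more than 2 in 31, 0, 1 and 14. The highest counts per cell were 70, 2, 9 and 40. Whether such cells are T cells or doublets was not tested. Genes of ILC1 and tissue residency summed to 0.148%, 0.0661%, 0.132% and 0.125%, and those of ILC2 and mast cells to at most 0.0124%. B cell genes gave 8, 0, 4 and 7 UMIs in all, and melanoma and stroma genes stayed at or below 0.0024%.

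The NK sums held 7150728, 226800, 459795 and 5277348 UMIs, with medians per cell of 7669, 14838, 11528.5 and 15524. A single UMI was thus worth 0.140 CPM in NTT and 0.189 CPM in RTT_PTGS12KO, but 4.41 CPM in RTT and 2.17 CPM in RTT_ROSA26. For that reason the expression results lead with RTT_PTGS12KO against NTT.

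NK cells were far scarcer in the resistant tumours with intact cyclooxygenases. The NTT sample had 8.58% NK cells (7.98 to 9.20%) among its CD45+ cells and RTT_PTGS12KO had 2.97% (2.65 to 3.32%). In RTT they were 0.163% (0.0869 to 0.279%), and in the control-guide sample RTT_ROSA26 0.380% (0.249 to 0.557%). The 4 intervals did not overlap except for those of RTT and RTT_ROSA26. The share was 52.6-fold higher in NTT than in RTT (log2 ratio 5.72, 4.93 to 6.63). It was 7.81-fold higher in RTT_PTGS12KO than in RTT_ROSA26 (2.97, 2.39 to 3.60). The pair of cyclooxygenase-proficient resistant tumours differed by 2.33-fold (RTT_ROSA26 over RTT, log2 1.22, 0.21 to 2.31), a difference between lines without the knockout. With a gate on marker genes in place of the study's name it was 1.25-fold (log2 0.32, -0.17 to 0.81). The knockout sample stayed below the naive one, at 0.346 of its share (log2 -1.53, -1.73 to -1.33).

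The 3 loads kept this order. The NTT loads ran from 8.02 to 9.09%, those of RTT from 0.112 to 0.230%, of RTT_ROSA26 from 0.260 to 0.481% and of RTT_PTGS12KO from 2.19 to 3.36%, with no overlap between any 2 samples. A share depends on its denominator, and the denominators differed: monocytes numbered 6619, 522, 144 and 4015 cells, and macrophages 329, 6833, 6123 and 5303. Without both in the denominator the log2 ratio was 4.67 for NTT over RTT and -0.78 for RTT_PTGS12KO over NTT. With the marker gate in place of the study's name, the log2 ratios were 3.35 for NTT over RTT and 2.14 for RTT_PTGS12KO over RTT_ROSA26. The direction held in both cases, and the sizes were smaller. Of the gated cells, 139 of 753, 61 of 71, 53 of 76 and 252 of 506 had other names, so the gate ratios also count those cells.

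**Figure D1:**
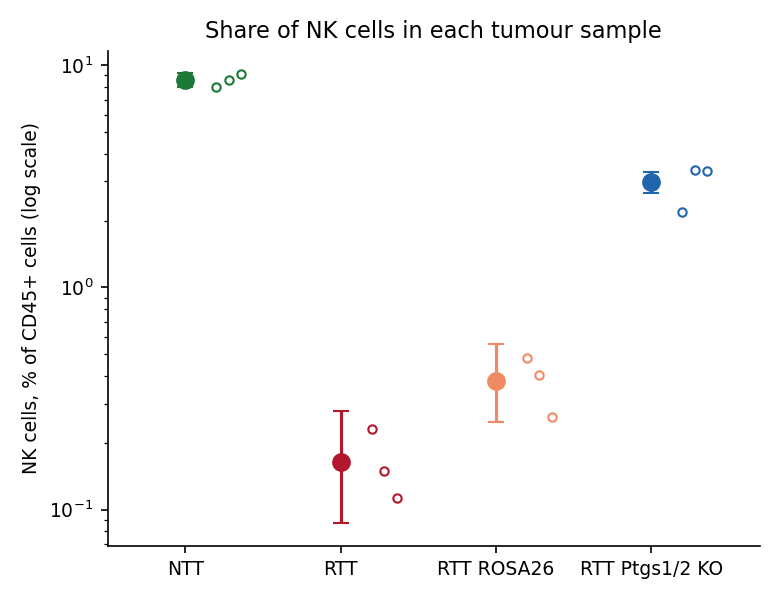
Share of NK cells among all CD45+ cells (%, log scale) in each of the 4 tumour samples. Filled points are the whole sample with its exact binomial 95% interval and open points are the 3 loads of that sample. The NTT loads lie at 8.02 to 9.09%, the RTT_PTGS12KO loads at 2.19 to 3.36%, and all loads of RTT and RTT_ROSA26 lie below 0.5%.

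Genes that set NK cells apart from all other cells of the same tumour were led by the granule proteins. Ranked by the smaller of the log2 ratios in NTT and RTT_PTGS12KO, the first were Gzmc (8.46), Gzma (7.97), Gzmd (6.81), Gzmf (6.75), Prf1 (6.34), Gzme (6.06) and Gzmb (5.72), of 2125 eligible genes. Nkg7, a granule membrane protein needed for degranulation, followed at 5.69. Then came the lectin-like receptor Klre1 (5.52), the cysteine protease inhibitor Ctla2a (5.27), Il2rb (5.16), the receptor chain shared by interleukin-2 and interleukin-15, and Klra7 (4.93) and Gzmg (4.83). The kinase Txk (4.81), the granule cathepsin Ctsw (4.81), the carbonic anhydrase Car2 (4.72), Ncr1 (4.67), Klrd1 (4.61), the signalling adaptor Sh2d2a (4.37) and Klrg1 (4.20) closed the 20. This ranking is a description of the named cluster.

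In RTT_PTGS12KO against NTT, with the most NK cells on both sides, most genes lay close together. The median log2 ratio over the 2463 genes with a mean of at least 50 CPM was 0.00, with a middle range of -0.16 to 0.17. Ratios were taken on the log2(CPM + 10) scale, which understates differences of low genes. Past 2-fold were 0.771% of genes (19) on the higher and 0.325% (8) on the lower side. Against that background the knockout NK cells were higher in granzymes d, e and g and in cell division genes. They were lower in Ccl5, Nkg7, interferon-induced genes and MHC class I genes, although most of the members of the last groups lay within 2-fold.

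The granule killing list held 8 genes above the minimum, with a median log2 ratio of 0.61, and 3 of the 8 were past 2-fold, all higher in the knockout sample. Gzmg (chr14:56156582-56159579, GRCm38) stood at 310, 66.1, 128 and 2425 CPM. The knockout sample was far above the other 3, and the log2 ratio against NTT was 2.93 (2.90 to 3.03), with 3.64, 2.48 and 2.69 in the 3 loads. A few cells carried much of it: the top 5 cells held 61.2% of the Gzmg UMIs in NTT and 53.5% in RTT_PTGS12KO.

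Gzmd (chr14:56129556-56132608) stood at 1491, 754, 2060 and 3812 CPM, with a log2 ratio of 1.35 (1.32 to 1.39; loads 1.21 to 1.51) between RTT_PTGS12KO and NTT. Gzme (chr14:56117626-56120625) stood at 765, 476, 829 and 1780 CPM (1.21, 1.17 to 1.27; loads 0.87 to 1.59). Both were lowest in RTT and highest in the knockout sample. Gzmf (chr14:56205263-56211417) stood at 1383, 39.7, 1764 and 2259 CPM, but its log2 ratio of 0.70 ran from 1.91 to -0.60 over the loads, and its top 5 cells held 44.5% of the UMIs in NTT and 61.2% in RTT_PTGS12KO. Its difference between those samples was thus within the spread between loads.

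The more widely used granzymes went the other way or stayed close. Gzma (chr13:113093825-113100981), a tryptase, stood at 9145, 1993, 2199 and 5108 CPM, and was lower in RTT_PTGS12KO than in NTT by a log2 ratio of -0.84 (-0.86 to -0.82; loads -0.98 to -0.74). Gzmb (chr14:56258838-56262260), the protease that cleaves caspases, stood at 2906, 842, 1488 and 2204 CPM (-0.40). Both were highest in NTT and lowest in RTT, and neither reached 2-fold between RTT_PTGS12KO and NTT.

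Gzmc (chr14:56231441-56234656) stood at 5387, 3836, 7945 and 7694 CPM (0.51, 0.49 to 0.53), and its log2 ratio of RTT_PTGS12KO over RTT_ROSA26 was -0.05, or -0.82 without myeloid-rich NK cells. Prf1 (chr10:61297833-61304680), which encodes perforin, stood at 1097, 529, 598 and 1210 CPM (0.14; loads 0.00 to 0.38), so NTT and RTT_PTGS12KO were alike within the loads and both resistant controls were lower. The granzymes Gzmk (32.7, 0, 0 and 18 CPM) and Gzmm (5.45, 0, 6.52 and 9.85 CPM) were low throughout.

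The 9 genes of granule loading and handling all lay below 0 in RTT_PTGS12KO against NTT, with a median of -0.17 and a range of -0.99 to -0.01. Nkg7 stood at 1972, 617, 742 and 987 CPM (-0.99, -1.04 to -0.95; loads -1.09 to -0.86), highest in NTT and lowest in RTT. Serpinb9, which protects the killer cell from its own granzyme B, stood at 510, 304, 278 and 451 CPM (-0.17), and the granule proteoglycan Srgn at 1456, 1323, 1690 and 1171 CPM (-0.31).

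**Figure D2:**
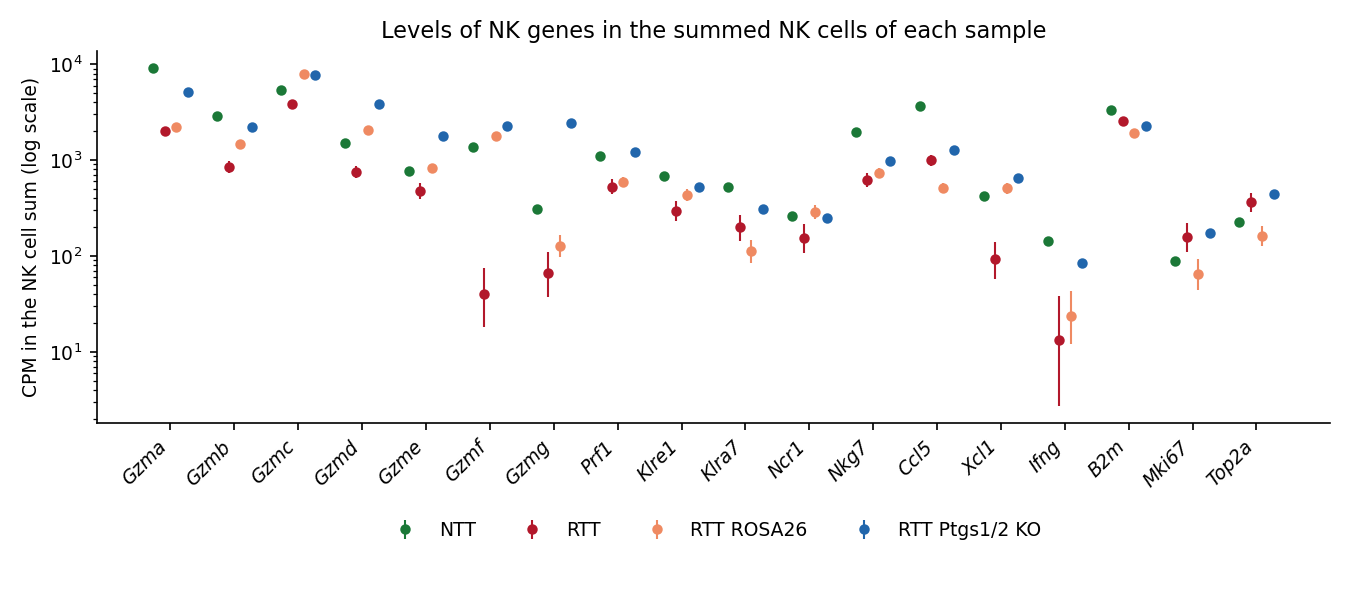
CPM (log scale) of 18 genes in the summed NK cells of each sample, with exact Poisson 95% intervals that cover counting error only. Gzma, Nkg7 and Ccl5 were highest in NTT, Gzmd, Gzme and Gzmg in RTT_PTGS12KO, and the wide intervals of RTT and RTT_ROSA26 come with their 13 and 26 cells.

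Division genes separated these samples as groups of genes, not as single large differences. All 14 mitosis genes above the minimum were higher in RTT_PTGS12KO than in NTT, with a median log2 ratio of 0.87 (range 0.30 to 1.09), and all 12 S phase genes as well, with a median of 0.41 (0.30 to 1.08). Past 2-fold were Nusap1, a spindle protein (83.6, 110, 34.8 and 189 CPM, log2 1.09), Ube2c, which helps to end mitosis (114, 168, 130 and 242 CPM, 1.03), and Rrm2, which makes DNA building blocks (56.8, 106, 65.2 and 131 CPM, 1.08). The proliferation marker Mki67 stood at 89.6, 159, 65.2 and 175 CPM (0.89; loads 0.51 to 1.20) and Top2a at 227, 362, 163 and 445 CPM (0.94; loads 0.62 to 1.25). RTT lay near the knockout sample in both genes and RTT_ROSA26 was lowest, so the resistant controls did not stand together. Mitosis genes summed to 0.281%, 0.326%, 0.207% and 0.472% of NK UMIs.

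Thinned to 2000 UMIs, so that depth was equal, 33.9% of NTT NK cells (240 of 707; 30.5 to 37.6%) had at least 5 UMIs of the S phase and mitosis genes. The share was 63.1% in RTT_PTGS12KO (193 of 306; 57.4 to 68.5%), 24% in RTT_ROSA26 (6 of 25; 9.36 to 45.1%), and in RTT 6 of 12 cells passed (21.1 to 78.9%). The intervals of NTT and RTT_PTGS12KO were apart, and those of the small samples were wide. This class is a range of a count, not a cell type: 118, 3, 3 and 37 cells had 4 to 6 such UMIs. Without thinning the shares were 81.0%, 100%, 73.1% and 92.2%, and at 4000 UMIs they were 59.3%, 81.8%, 47.8% and 78.4%. Macrophages thinned in the same way gave 24.3%, 11.7%, 25.9% and 30.6%, so the knockout macrophages were higher than those of NTT as well, and free RNA from dividing cells was not measured.

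Interferon-induced genes were lower in the knockout NK cells than in the naive ones. All 7 type I interferon genes above the minimum (of 34) lay below 0 (median -0.84, range -1.06 to -0.50), 2 of them past 2-fold. Isg15, a ubiquitin-like modifier, stood at 131, 22, 15.2 and 57.8 CPM (-1.06), and Ifi27l2a at 393, 335, 146 and 190 CPM (-1.01). Both were also higher in the other cells of NTT than in those of RTT_PTGS12KO, with Isg15 at 856 and 235 CPM, and how much of the NK value is free RNA was not tested.

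Genes of MHC class I presentation lay below 0 in 15 of 15 cases, with a median of -0.37 and a range of -0.80 to -0.14, none past 2-fold. The listed genes summed to 1.29% of NK UMIs in NTT and 0.897% in RTT_PTGS12KO. The other cells went the same way, at 1.97% and 1.07%, and the part of free RNA was not tested. H2-K1 stood at 2708, 1565, 1161 and 1644 CPM (-0.72; loads -0.78 to -0.66), and B2m, the light chain of all class I molecules, at 3321, 2531, 1914 and 2257 CPM (-0.56; loads -0.64 to -0.50). In both, NTT was the highest sample and RTT_ROSA26 the lowest. All 7 genes of the interferon-γ list above the minimum (of 21) were below 0 as well (median -0.35). In the other cells the list summed to 0.544% of UMIs in NTT and 0.339% in RTT_PTGS12KO. Gbp2, an interferon-γ-induced GTPase, stood at 102, 26.5, 19.6 and 96.3 CPM, so RTT_PTGS12KO was close to NTT (-0.08) and both were well above the resistant controls.

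Most receptor genes were lower in RTT_PTGS12KO than in NTT, by less than 2-fold. So were 11 of the 14 NK markers (median -0.39), some of which are receptors. Of the 10 NKG2 and NKR-P1 family genes above the minimum 9 were below 0 (median -0.38), and so were all 11 other activating receptors and adaptors (median -0.49). Klre1, which forms inhibitory or activating pairs, stood at 687, 295, 433 and 527 CPM (-0.38; loads -0.52 to -0.03). Klra7 stood at 524, 198, 113 and 305 CPM (-0.76; loads -1.01 to -0.31). Both were highest in NTT, and the knockout sample came next.

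The activating receptor genes were mostly close between the larger samples. Klrk1, encoding NKG2D, stood at 394, 225, 278 and 297 CPM (-0.39), and Klrb1c, encoding NK1.1, at 301, 106, 128 and 179 CPM (-0.72). Ncr1 stood at 263, 154, 289 and 251 CPM, and its log2 ratio of -0.06 had an interval of -0.17 to 0.03, which holds 0. Of 9 Ly49 genes 4 passed the minimum, 2 above and 2 below 0, with a median of -0.14. The adaptor genes Tyrobp (2591, 2562, 2007 and 1843 CPM) and Fcer1g (2484, 2548, 1964 and 1760 CPM) gave -0.49 each, but myeloid cells use both too.

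The remaining genes with the largest differences between RTT_PTGS12KO and NTT, among genes at least as high in NK cells as in the other cells, were few and mostly low. On the higher side were Pdgfa, a growth factor for stromal cells (25.5, 35.3, 41.3 and 97.0 CPM, log2 1.59, loads 1.30 to 2.03), and Cd55, which shields cells from complement (48.5, 22, 52.2 and 132 CPM, 1.27, loads 0.98 to 1.92). The histone genes Hist1h3c (1.32) and Hist1h2ab (1.09) belong with DNA replication. Areg, the growth factor amphiregulin, was at 3.92, 0, 0 and 71.6 CPM, but 5 cells held 99.5% of its UMIs in the knockout sample and its log2 ratio was 0.37, -0.19 and 3.55 in the loads. It is a difference of a few cells of 1 load.

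On the lower side stood Sult2b1, a sulphotransferase acting on sterols (88.2, 4.41, 41.3 and 22.2 CPM, -1.61, loads -1.75 to -1.50), the costimulatory receptor Cd28 (88.4, 35.3, 10.9 and 34.5 CPM, -1.15, loads -1.27 to -1.05) and the lymphoid surface protein Cd7 (82.1, 8.8, 21.7 and 34.5 CPM, -1.05, loads -1.31 to -0.78). Each was lower in RTT_PTGS12KO than in NTT in every load. The interferon-induced genes Ifi27 (129, 88.2, 69.6 and 49.3 CPM, -1.23), Isg20 (-1.05) and Samd9l (-0.85) were on this side too. So was the interleukin-18 receptor gene Il18r1 (88.0, 35.3, 47.8 and 43.0 CPM, -0.89).

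**Figure D3:**
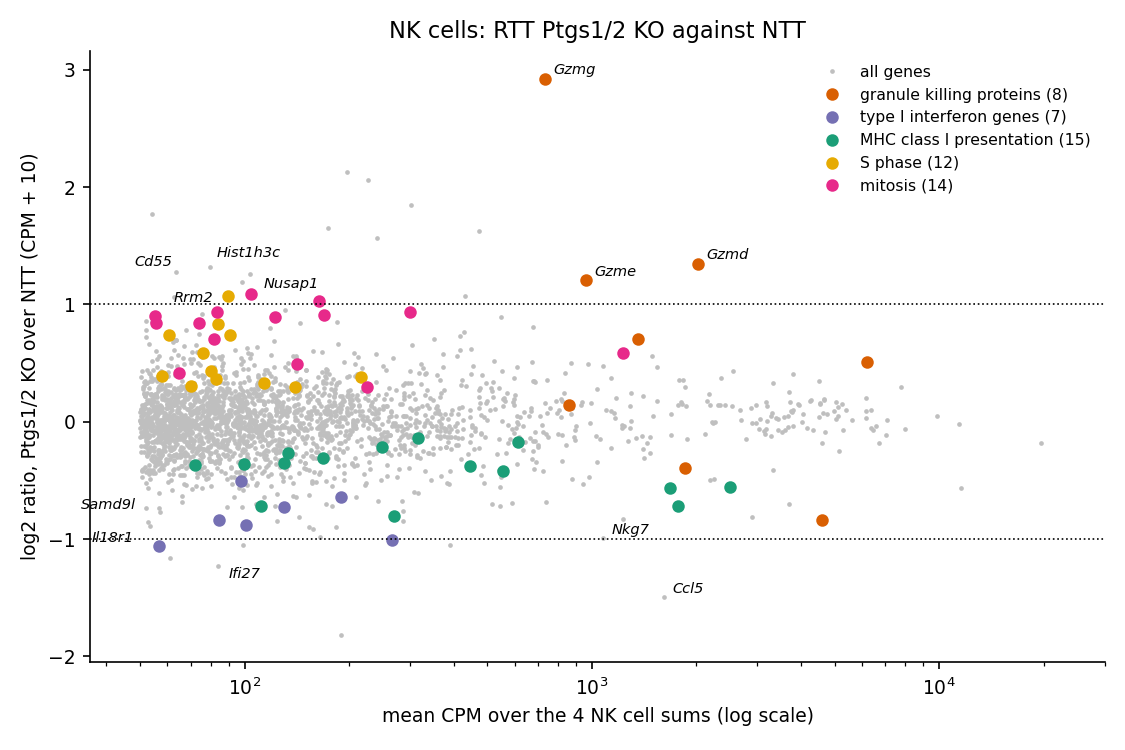
Log2 ratio of CPM + 10 in NK cells of RTT_PTGS12KO over NTT (vertical) against the mean CPM over the 4 NK sums (horizontal, log scale) for 2463 genes, with 5 gene lists coloured and genes named in the text by the naming rule labelled where they passed the minimum. Dotted lines mark 2-fold. All mitosis and S phase genes lie above 0, all type I interferon and MHC class I genes below 0, and Gzmg lies at 2.93.

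The remaining contrasts rest on 13 and 26 NK cells and are given as values of those cells. In NTT against RTT, 3.05% of genes (75) were past 2-fold higher in NTT and 7.06% (174) lower. In RTT_PTGS12KO against RTT_ROSA26, the shares were 2.27% (56) higher and 5.32% (131) lower. RTT_ROSA26 against RTT, lines that differ by no targeted gene, gave 2.31% (57) higher and 2.88% (71) lower, close to the other contrasts on the higher side and below both on the lower side. NTT against RTT and RTT_ROSA26 against RTT share the RTT cells, both contrasts of RTT_ROSA26 share its cells, and RTT_PTGS12KO against NTT shares a sample with each of the first contrasts.

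These counts depended on the scaling and on which cells were kept. The genes higher in the first-named sample were 30.1% of those past 2-fold in NTT against RTT, 29.9% in RTT_PTGS12KO against RTT_ROSA26, 44.5% in RTT_ROSA26 against RTT and 70.4% in RTT_PTGS12KO against NTT. With TMM factors, which moved the median log2 ratio of all genes to 0.27, 0.18 and 0.07 in the first 3 of these contrasts, the splits were 62.5%, 46.1% and 57.6%. With only NK cells of at most 1% myeloid UMIs (7 cells left in RTT and 18 in RTT_ROSA26) they were 35.9%, 81.5% and 28%, and 54.5% in RTT_PTGS12KO against NTT. Leaving out the 10% of NK cells of each sample with the most myeloid UMIs gave 25.1%, 26.7%, 35.6% and 63.6%, so in RTT_PTGS12KO against RTT_ROSA26 the limit of 1% moved the split far and this one did not. Fewer cells and fewer myeloid UMIs cannot be told apart here. The myeloid list itself had a median of -1.75 in NTT against RTT, with 14 of 20 genes past 2-fold, and of -1.63 in RTT_PTGS12KO against RTT_ROSA26, with 12 of 20.

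NTT exceeded RTT in all 8 granule killing genes (median 1.41, 5 past 2-fold), although Gzmc turned to -0.26 without myeloid-rich NK cells and to -0.076 with means over cells. RTT_PTGS12KO exceeded RTT_ROSA26 in 7 of 8 (median 0.94, 4 past 2-fold). All 8 were also higher in RTT_ROSA26 than in RTT (median 0.84, 3 past 2-fold), a contrast without knockout. Without the myeloid-rich cells these medians were 2.03, 0.51 and 2.09, and in RTT_ROSA26 against RTT Gzma (-0.93), Gzmb (-0.38) and Prf1 (-0.012) were then no longer higher. Gzma gave log2 ratios of 2.19, 1.21 and 0.14 in these contrasts, and Prf1 gave 1.04, 1.00 and 0.17. Without myeloid-rich cells Gzma in RTT_PTGS12KO against RTT_ROSA26 came to 2.19. Gzmd (0.97, 0.88 and 1.44), Gzmc (0.49, -0.05 and 1.05) and Gzmf (4.81, 0.36 and 5.16) differed as much between the resistant controls as in the other contrasts. Gzmf was carried in RTT by 9 UMIs in 2 cells, and its value in NTT against RTT was 7.14 without myeloid-rich cells. Gzmg was highest in the knockout sample (4.14 over RTT_ROSA26, 3.87 to 4.63), but rested in RTT_ROSA26 on 59 UMIs in 4 cells and came to 2.91 without myeloid-rich cells.

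Among receptors, Klra7 was higher in NTT than in RTT (log2 1.36) and in RTT_PTGS12KO than in RTT_ROSA26 (1.36), and lower in RTT_ROSA26 than in RTT (-0.76). Without myeloid-rich cells these values were 2.12, 0.78 and 0.61, so the last turned. Klrg1, an inhibitory receptor of mature NK cells, gave 1.35 and 1.59 in the first 2 contrasts (184, 66.1, 52.2 and 177 CPM). Over the 14 NK markers the medians were 0.91 (14 of 14 higher), 0.31 (11 of 14) and, in RTT_ROSA26 against RTT, 0.28 (13 of 14).

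Of the 21 interferon-γ-induced genes 7 passed the minimum. Of these, 6 were higher in NTT than in RTT (median 1.25, 4 past 2-fold), and 7 in RTT_PTGS12KO than in RTT_ROSA26 (median 1.03, 4 past 2-fold). Genes high in NTT and RTT_PTGS12KO alone can pass a mean over the 4 sums, so these counts lean that way by construction. Gbp2 gave 1.62 (0.82 to 3.40) and 1.85 (1.36 to 3.44), and Irf1, a transcription factor of the same response, gave 1.43 and 1.03. MHC class I genes were higher in 15 of 15 and 14 of 15 cases (medians 0.73 and 0.50), with H2-Q7 at 1.07 and 1.08. In RTT_ROSA26 against RTT the MHC class I median was -0.25. S phase genes were lower in NTT than in RTT in 12 of 12 cases (median -0.75), whereas mitosis genes were higher in RTT_PTGS12KO than in RTT_ROSA26 in 14 of 14 (median 1.22, 10 past 2-fold), and lower in RTT_ROSA26 than in RTT by a median of -0.95. Without myeloid-rich cells these cell cycle medians were -1.29, 1.80 and -2.06, each further from 0. The medians of the interferon-γ list came closer to it, at 0.76 and 0.61 over 6 genes, and those of MHC class I were 0.66, 0.39 and, in RTT_ROSA26 against RTT, -0.40.

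The genes furthest below 0 in these contrasts came close to 0 or turned once myeloid-rich NK cells were left out, except Il1r2 and, in part, Il7r. Lower in NTT than in RTT were the monocyte chemokine genes Ccl7 (22.7, 922, 157 and 107 CPM, log2 -4.83) and Ccl12 (33.0, 472, 104 and 178 CPM, -3.49), Npl (-3.76), Il10 (1.40, 137, 2.17 and 2.46 CPM, -3.69) and Gdf15 (-3.09). With NK cells of at most 1% myeloid UMIs these values were -0.04, 1.37, 0.23, 0.18 and 0.10. Lower in RTT_PTGS12KO than in RTT_ROSA26 were Procr (-2.59), Il7r (-2.09), Sgk1 (-2.06), Nlrp3 (-2.06) and Il1r2 (-2.03), which came to -0.27, -0.81, -0.44, -0.51 and -1.51 without those cells. In 4 of these 10 genes the direction turned, all of them in NTT against RTT.

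On the higher side, Ifng stood at 142 CPM in NTT and at 13.2 CPM in RTT (log2 2.71, 1.87 to 5.70), where it rested on 3 UMIs, and the value without myeloid-rich cells was 4.09. Sult2b1 (2.77) and Cd7 (2.29) were higher in NTT as well, at 2.18 and 1.48 without those cells. Klra5 stood at 53.8, 0, 8.70 and 43.0 CPM, with 0 UMIs in RTT, where the upper bound of its interval was 16.3 CPM. The histone genes Hist1h2ae (404, 1027, 76.1 and 583 CPM), Hist1h2ap (1014, 1649, 241 and 1417 CPM) and Hist1h1b (115, 97.0, 28.3 and 176 CPM) gave 2.78, 2.51 and 2.28 in RTT_PTGS12KO against RTT_ROSA26, with RTT_ROSA26 lowest of the 4 samples in each.

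The secreted factors and the cells that held their UMIs were then compared. NK cells held 10.3%, 0.194%, 0.417% and 3.59% of all UMIs of their samples, and cells of the marker gate held 1.08% in RTT, 1.53% in RTT_ROSA26 and 5.94% in RTT_PTGS12KO. Of the Gzma UMIs they held 98.4%, 48.7%, 69.6% and 94.8%, and of the Prf1 UMIs 97.2%, 63.8%, 81.4% and 95.6%. In RTT they also held 38.7% of Gzmb but 4.89% of Gzmf, far more in each case than their part of all UMIs.

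Fasl, the death ligand, was held by NK cells for 90.3% of its 476 UMIs in NTT and 80.9% of its 235 UMIs in RTT_PTGS12KO. Xcl1, which attracts cross-presenting dendritic cells, was held for 61.6%, 11.3%, 81.5% and 65.3%, with NK levels of 420, 92.6, 507 and 648 CPM. In NTT and RTT_PTGS12KO, T cells held most of the rest of Xcl1. For Csf2 the NK part was 62.9% of 62 UMIs in NTT and 51.8% in RTT_PTGS12KO, but 38.7% in NTT with the marker gate.

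In NTT and RTT_PTGS12KO, Ifng was mostly a T cell transcript. NK cells held 22.6%, 4.23%, 15.3% and 4.21% of its UMIs, and the 93 T cells of NTT held 75.8%. The NK level was 142, 13.2, 23.9 and 84.7 CPM, lower in RTT_PTGS12KO than in NTT (log2 -0.68, -0.91 to -0.58), while the T cell level was 2177 CPM in NTT and 8697 CPM in RTT_PTGS12KO. T cells numbered 93, 1, 2 and 45, so the T cell values of RTT and RTT_ROSA26 rest on 1 and 2 cells.

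Ccl5, a chemokine for T cells and monocytes (chr11:83525778-83530518), stood at 3652, 1001, 513 and 1289 CPM in NK cells. NTT was the highest sample, with a log2 ratio of -1.50 for RTT_PTGS12KO over NTT (-1.54 to -1.46; loads -1.57 to -1.42) and of 1.86 for NTT over RTT. The other cells followed a like order, at 2113, 74.5, 52.6 and 314 CPM, and held most of the Ccl5 UMIs: the NK part was 16.6%, 2.55%, 3.93% and 13.3%. Of Ccl3, Ccl4 and Tnf the NK part was at most 2.80%, and at most 4.92% with the marker gate.

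Spp1, which encodes the secreted phosphoprotein osteopontin and is best known here from macrophages, was found in NK cells too. It stood at 2162, 1715, 2286 and 2547 CPM in NK cells, level over the 4 samples, whereas the other cells stood at 259 CPM in NTT and 4009 CPM in RTT_PTGS12KO. In NTT, NK cells were 8.58% of the cells and held 49.0% of the Spp1 UMIs (15461 of 31551), against 2.31% in RTT_PTGS12KO (43.2% and 3.64% with the marker gate). At 2000 UMIs per cell, 59.8% of NTT NK cells and 29.2% of NTT macrophages had a Spp1 UMI, while in RTT_PTGS12KO 61.8% of NK cells and 83.0% of macrophages did. In NTT the NK level was above that of the other cells, and in RTT_PTGS12KO below it, where the part of free RNA was not tested.

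**Figure D4:**
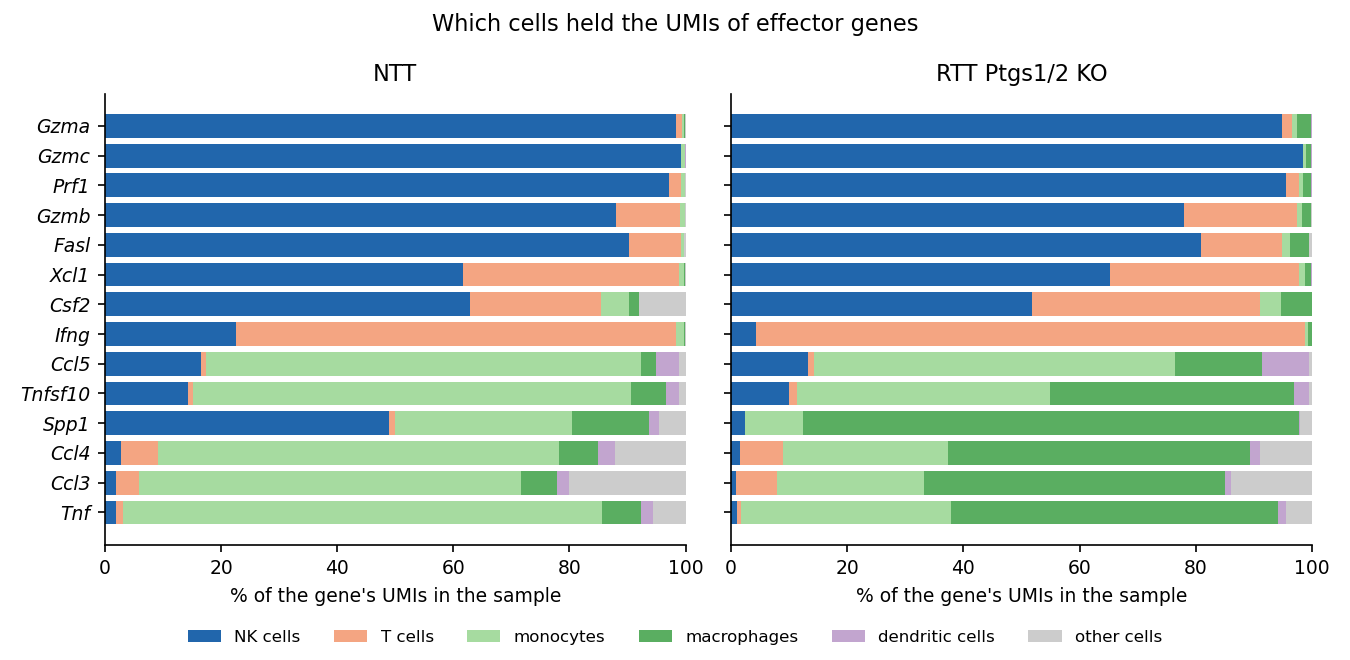
Share of each gene's UMIs (%) held by NK cells, T cells, monocytes, macrophages, dendritic cells and other cells in NTT (left) and RTT_PTGS12KO (right). NK cells hold over 90% of Gzma, Gzmc and Prf1 in both, 22.6% and 4.21% of Ifng, and 49.0% and 2.31% of Spp1.

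Prostaglandin receptors were near the floor in NK cells. Ptger2, which encodes EP2, stood at 5.5, 8.8, 2.2 and 6.1 CPM and Ptger4, which encodes EP4, at 12.7, 13.2, 2.2 and 8.9 CPM, with 1 to 3 UMIs each in RTT and RTT_ROSA26, where no difference was detectable at this depth. Between RTT_PTGS12KO and NTT the log2 intervals were -0.57 to 0.86 for Ptger2 and -1.05 to 0.0084 for Ptger4, and both hold 0. Of 18 genes of prostanoid signalling and cAMP response 9 passed the minimum. All 9 lay below 0 in RTT_PTGS12KO against NTT (median -0.25), and their median in RTT_PTGS12KO against RTT_ROSA26 was -0.35, or 0.032 without myeloid-rich NK cells. Of these, Crem, a cAMP-induced repressor, stood at 145, 75, 152 and 104 CPM (-0.45), and the nuclear receptor gene Nr4a2 at 134, 132, 78.3 and 90.2 CPM (-0.52). Neither placed both resistant controls on 1 side of the other samples.

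Per cell, at 2000 UMIs, more knockout than naive NK cells carried the granzymes c, d, e and g, and fewer carried Gzma, Gzmb and Ccl5. Gzmd was detected in 18.4% of NTT NK cells (15.6 to 21.4%) and 35.0% of RTT_PTGS12KO NK cells (29.6 to 40.6%). Gzmg was detected in 4.53% (3.12 to 6.33%) and 16.7% (12.7 to 21.3%), and Gzmc in 44.1% (40.4 to 47.9%) and 59.5% (53.7 to 65.0%). These intervals did not overlap, whereas those of Gzmf did (8.20%, 6.29 to 10.5%, and 14.1%, 10.4 to 18.5%).

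Gzma was detected in 85.7% (82.9 to 88.2%) and 75.8% (70.6 to 80.5%), and Ccl5 in 54.7% (51.0 to 58.5%) and 42.2% (36.6 to 47.9%). Mki67 was detected in 8.77% (6.79 to 11.1%) and 25.2% (20.4 to 30.4%). Without thinning, the shares were 89.3% and 83.0% for Gzma, 23.4% and 41.5% for Gzmd, and 66.9% and 56.5% for Ccl5. Gzmb was then found in 663 of 709 NTT and 288 of 306 RTT_PTGS12KO NK cells, which was no longer a lower share. In macrophages of the same samples, which should lack granzymes, 0.912% and 0.830% had a Gzma UMI and 1.22% and 0.622% a Gzmd UMI at the same depth, so the granzyme shares of NK cells lay far above those of macrophages. Ccl5 was detected in 33.4% of NTT and 6.73% of RTT_PTGS12KO macrophages.

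**Figure D5:**
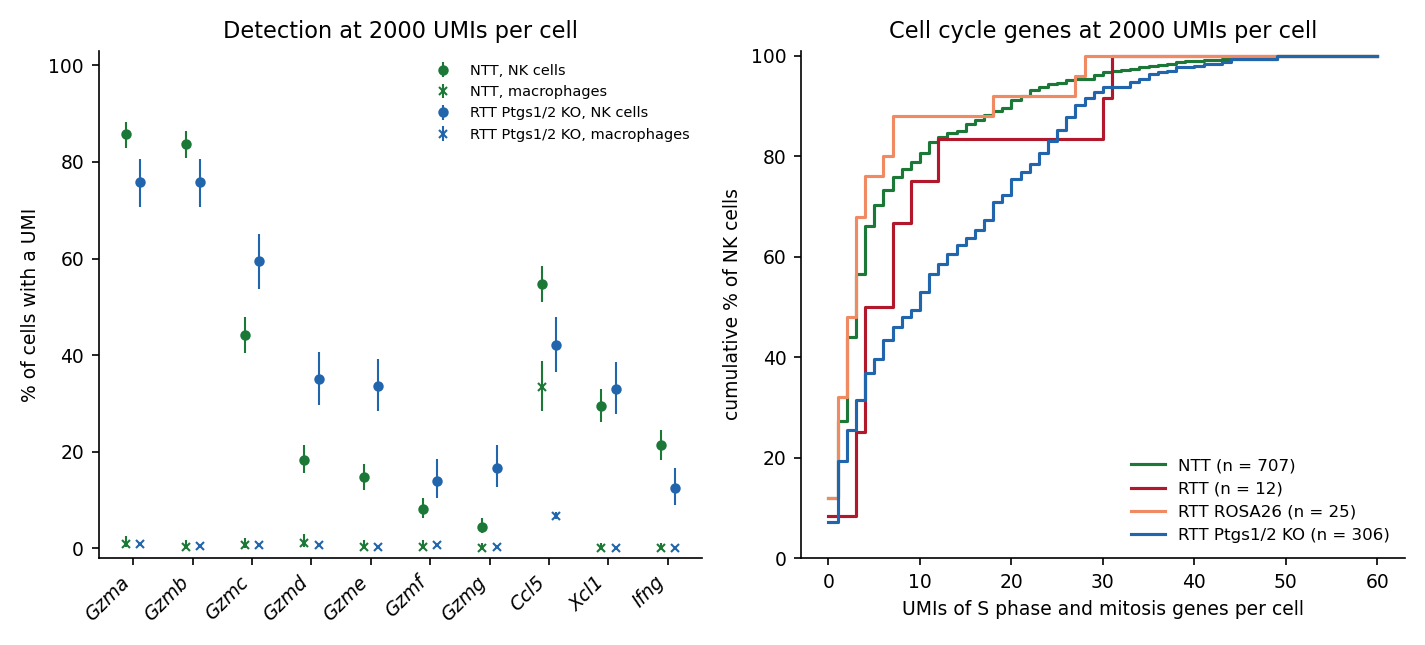
Left, share of cells (%) with a UMI of 10 genes after thinning each cell to 2000 UMIs, for NK cells (circles) and macrophages (crosses) of NTT and RTT_PTGS12KO, with exact binomial 95% intervals. Right, cumulative share (%) of NK cells by their UMIs of S phase and mitosis genes. Gzmd lies at 18.4% and 35.0% of NK cells, and the RTT_PTGS12KO curve runs to the right of the NTT curve (medians of 10 and 3 UMIs).

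Granzymes d to g were found in part of the NK cells, in all samples. At 2000 UMIs, a UMI of any of these 4 genes was present in 150 of 707 (21.2%; 18.3 to 24.4%), 4 of 12 (33.3%; 9.92 to 65.1%), 11 of 25 (44%; 24.4 to 65.1%) and 125 of 306 (40.8%; 35.3 to 46.6%) cells, a class chosen after its values were seen. The intervals of NTT and RTT_PTGS12KO were apart, and that of RTT_ROSA26 took in the knockout value. In 27, 1, 0 and 16 of those cells it rested on 1 UMI. Cells with and without these granzymes, called late granzymes here, differed in other genes, and the levels that follow use all UMIs of these cells.

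Ccl5 stood at 301 CPM in NTT cells with a late granzyme and at 5469 CPM in those without. The values were 20.0 and 1801 CPM in RTT, 12.5 and 787 CPM in RTT_ROSA26, and 77.8 and 2802 CPM in RTT_PTGS12KO. Ccl5 was thus lower in the granzyme d to g cells of all 4 samples. Gzma was lower in them as well, at 5016 against 11385 CPM in NTT and 4119 against 6342 CPM in RTT_PTGS12KO, and so was Klra7 in these samples, at 257 against 668 CPM and 261 against 360 CPM. In RTT_ROSA26 Klra7 went the other way, at 206 against 63.9 CPM. Among cells without late granzymes alone, Ccl5 and Gzma were still lower in RTT_PTGS12KO than in NTT.

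Gzmc went with the late granzymes, at 10788 against 2469 CPM in NTT, 5237 against 2585 CPM in RTT, 17433 against 2842 CPM in RTT_ROSA26 and 12221 against 2043 CPM in RTT_PTGS12KO. Spp1 was higher in them in 3 of 4 samples (3432 against 1475 CPM in NTT and 3460 against 1406 CPM in RTT_PTGS12KO), with RTT_ROSA26 the exception at 1420 against 2741 CPM. These cells were also deeper before thinning, with median UMIs of 15540.5 against 6361 in NTT and 22290 against 10242 in RTT_PTGS12KO. Division did not follow the same line: 38.7% of NTT cells with a late granzyme were above the cell cycle limit against 32.7% of the others, and 60.8% against 64.6% in RTT_PTGS12KO.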

How the data were processed

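CD45+ live cells of 4 samples, tagged, pooled and loaded 3 times, were measured by 10x Genomics 3′ single-cell RNA-seq. The values used were UMI counts per gene and cell (33368 cells, 32285 genes), deposited by the authors after Cell Ranger on mm10 and Seurat 4.3.0, with cells of over 1000 genes and under 15% mitochondrial UMIs. Between-sample doublets were removed by tag, and doublets within a sample were not removed here. Cell names, samples and loads came from the deposited annotation. No sample has a replicate, so no test was run.

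Counts were summed over the NK cells of each sample and divided by their total to give CPM. Log2 ratios used a pseudocount of 10 CPM and genes with a mean of at least 50 CPM over the 4 sums, and genes past 2-fold were counted. A gene high in only some of the samples can pass this mean, so list counts lean towards the samples where members are high. Shares carry exact Clopper-Pearson intervals, CPM exact Poisson intervals, and ratios conditional exact intervals of the ratio without the pseudocount. For detection and cell cycle values each cell was thinned to 2000 UMIs, which left out 2 NTT, 1 RTT and 1 RTT_ROSA26 NK cells. Named genes were the 7 markers, members of 29 lists, the 10 highest and 10 lowest genes of RTT_PTGS12KO against NTT and the 5 and 5 of NTT against RTT and of RTT_PTGS12KO against RTT_ROSA26 (at least 50 CPM in the higher sample and as high in NK cells as in the rest, with at least 20 UMIs for the latter contrasts), and the 20 genes highest in NK cells over the rest. A few items that these rules cover are not reported here. The members and lists were chosen with earlier results of these data known. Alternatives were a stricter cell filter, a marker gate, other denominators, single loads, a pseudocount of 1 CPM, no minimum, TMM factors, removal of Cd3-bearing or myeloid-rich cells, means over cells, and thinning to 4000 UMIs. Leaving out NK cells of over 1% myeloid UMIs was added after seeing the data. Gene positions are from GENCODE on GRCm38 and promoter sequences from RefSeq on GRCm38.p6. Ratio code was tested on simulated data. Python 3.11.15 with numpy 2.4.6, pandas 2.3.3, scipy 1.17.1 and matplotlib 3.10.9, and R 4.3.3 with edgeR 4.0.16 for TMM factors only, were used.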

Additional observations from a re-analysis of the deposited data

How the results depend on the processing

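No paired analysis was possible because no group holds more than 1 sample. Differences between tumours, lines and mice cannot be told apart, and values of RTT and RTT_ROSA26 rest on 13 and 26 cells. Of the share ratios under alternatives, 24 stayed within their interval and 8 moved, none turning direction. For NTT over RTT the log2 ratio was 3.35 with the marker gate and 4.67 without monocytes and macrophages. For RTT_PTGS12KO over RTT_ROSA26 it was 2.14 with the gate, 2.19 in load 1 and 3.68 in load 3. For RTT_PTGS12KO over NTT it was -0.89, -0.78 without monocytes and macrophages, and -1.87 in load 1. Genes past 2-fold (higher, lower) with no minimum numbered 347 and 692 in NTT against RTT, 173 and 376 in RTT_PTGS12KO against RTT_ROSA26, 523 and 405 in RTT_ROSA26 against RTT and 38 and 26 in RTT_PTGS12KO against NTT, where more low genes enter by construction. With TMM factors they were 190 and 114 in NTT against RTT and 88 higher in RTT_PTGS12KO against RTT_ROSA26. With at most 1% myeloid UMIs they were 132 higher, 110 and 25, 134 and 344, and 12 higher, in the order above. Means over cells gave 100 and 158 in RTT_ROSA26 against RTT and 29 higher in RTT_PTGS12KO against NTT. Leaving out the top 10% of cells by myeloid UMIs gave 125 lower in RTT_ROSA26 against RTT. In RTT_PTGS12KO against NTT load 1 gave 19 lower, and load 3 gave 33 and 14. The higher share of those past 2-fold was 56.4% in RTT_ROSA26 against RTT with no minimum, 53.7% in RTT_PTGS12KO against NTT in load 1 and 40.2% in RTT_PTGS12KO against RTT_ROSA26 with means over cells.

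List medians stayed within the spread of their members in 359 cases, moved beyond it in 22, and in 4 a median whose spread left out 0 turned. In RTT_PTGS12KO against NTT the mitosis median was 0.96 with a pseudocount of 1, 0.94 without Cd3-bearing cells, 1.12 with means over cells and 1.04 in load 3, and the MHC class I median was -0.24 with means over cells. Gene ratios stayed within their interval in 424 cases, moved in 264, and in 14 a ratio whose interval left out 0 turned. Sign changes of values whose spread or interval held 0 are further cases, 21 for list medians and 9 for genes. Among them, with at most 1% myeloid UMIs, RTT_ROSA26 against RTT went from -0.95 to 1.29 for secreted and death ligands, from 0.52 to -0.26 for MYC and ribosome genes, from 0.12 to -0.43 for the prostanoid list, from 0.14 to -0.93 for Gzma and from 0.17 to -0.012 for Prf1, and RTT_PTGS12KO against RTT_ROSA26 from 0.23 to -0.50 for the NKG2 list. With means over cells Gzmc turned to -0.076 in NTT against RTT, Gzmb to -0.94 in RTT_ROSA26 against RTT, Prf1 to -0.039 in RTT_PTGS12KO against NTT, and the MYC and ribosome list to 0.050 in RTT_PTGS12KO against RTT_ROSA26. With at most 1% myeloid UMIs, NTT against RTT turned for the NKG2 list (-0.033), Gzmc (-0.26), Npl (0.23), Il10 (0.18), Ccl12 (1.37) and Gdf15 (0.10). RTT_PTGS12KO against RTT_ROSA26 turned for the MYC and ribosome list (0.13), the prostanoid list (0.032) and Klre1 (-0.37), and RTT_ROSA26 against RTT for Gzmb (-0.38) and Klra7 (0.61). In RTT_PTGS12KO against NTT, Areg turned in load 2 (-0.19), and Spp1 (-0.28) and Gzmf (-0.60) in load 3. With the marker gate the NK part of a gene's UMIs stayed within its interval in 40 cases and moved in 64. Shares of NK cells with a UMI, which grow with depth by construction, stayed in 79 cases and moved in 89 at 4000 UMIs or without thinning. Mki67, for example, was detected in 19.7% of NTT and 36.1% of RTT_PTGS12KO NK cells at 4000 UMIs. The causes were not tested.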

Other observations

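Other gene groups of RTT_PTGS12KO against NTT NK cells were close between these samples. Of 13 genes of MYC targets and ribosome assembly 12 were higher in RTT_PTGS12KO (median log2 0.38), with Npm1, a nucleolar chaperone, at 1302, 1235, 1812 and 1801 CPM in NTT, RTT, RTT_ROSA26 and RTT_PTGS12KO (0.46). RTT_ROSA26 stood as high as the knockout sample. Glycolysis genes had a median of -0.12 (2 of 12 higher), and Ldha stood at 940, 644, 853 and 1042 CPM (0.15). Genes of cell survival had a median of 0.01, with Bcl2 at 176, 92.6, 135 and 93.4 CPM (-0.84).

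Among the transcription factors of the lineage, 8 of 10 were below 0 (median -0.14). Eomes was above it, at 117, 70.5, 124 and 160 CPM (0.42; loads 0.28 to 0.54), and Id2, needed for innate lymphocytes, was level at 676, 344, 605 and 664 CPM (-0.03). Il2rb, through which interleukin-15 keeps NK cells alive, stood at 543, 335, 420 and 481 CPM (-0.17). Of 12 checkpoint genes 3 passed the minimum: Ctla4 (97.1, 48.5, 54.4 and 68.2 CPM), Tnfrsf9 (626, 304, 368 and 531 CPM) and Tnfrsf18, with Pdcd1 at 25, 0, 21.7 and 11 CPM. The fractalkine receptor gene Cx3cr1, which myeloid cells use too, stood at 10.8, 106, 113 and 23.7 CPM, high in both samples with the higher myeloid content, whose part was not tested.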
